A study of Mus musculus with 6 samples.

Results

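The genes described here are 36 mouse genes of ribosome biogenesis, chosen by name from the proteins that transcribe ribosomal RNA, modify and cut it, and assemble it into both subunits of the ribosome. Their rows were taken from the deposited counts by Entrez Gene ID. All 36 were found among the 27179 genes counted, and all 36 passed the filter on low counts (a mean of 100 normalized counts or more), which left 11934 genes for testing. RNA was sequenced from 3 immortalized mouse embryonic fibroblast (MEF) lines of C57BL/6 origin that lack repressors of the circadian clock, with 2 libraries per line from separate RNA preparations of growing cells. Cry/Per_KO cells carry the genotype cry1-/-, cry2-/-, per1-/-, per2-/-. Per/Nr1d_KO cells are per1-/-, per2-/-, nr1d1-/- and nr1d2-/-, and in Cry/Per/Nr1d_KO cells all 6 of these genes are knocked out, so that every line lacks Per1 and Per2. The Cry/Per/Nr1d_KO line is 1 clone that was made with CRISPR/Cas9 from Cry/Per_KO cells, and the Per/Nr1d_KO line was made separately. Each genotype is therefore 1 line, and the effect of a genotype and other differences between the lines cannot be told apart.

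Ribosomes are made in the nucleolus, where RNA polymerase I transcribes the precursor of the large ribosomal RNAs. Box C/D and box H/ACA small nucleolar ribonucleoproteins (snoRNPs) modify this precursor, the small subunit processome and the PeBoW complex take part in its cleavage, and further factors build the large subunit. Many of these genes are known targets of MYC, which binds the same E-box sequence, CACGTG, as the clock activator CLOCK-BMAL1, and ribosome biogenesis is one of the processes reported to follow the clock in liver. The libraries were enriched for poly-A RNA, so the messenger RNAs of the 36 genes were measured and ribosomal RNA itself was not.

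For 4 libraries, the recorded genotype and the name of the deposited counts contradict each other, since the pair that one calls Cry/Per_KO is Cry/Per/Nr1d_KO in the other. The groups follow the recorded genotype, and the pair with the genotype of Cry/Per_KO is named CP-labelled here and the pair with that of Cry/Per/Nr1d_KO is named CPN-labelled. With the names exchanged, the sign of the comparison between these pairs turns and their comparisons with Per/Nr1d_KO trade places. The targeted genes were still transcribed in all lines, and the levels of known NR1D targets went against the recorded genotype. NR1D proteins repress Arntl, Npas2, Clock, Cry1 and Nfil3, and by the genotype they are present in the CP-labelled libraries and absent from the CPN-labelled ones. Of these 5 targets, 4 were higher in the CP-labelled libraries by the adjusted p, 0 were lower, and Clock did not pass. Arntl had 1190 and 1175 normalized counts in the CPN-labelled libraries, 2208 and 2194 in the CP-labelled ones, and 2487 and 2444 in Per/Nr1d_KO. The CPN-labelled libraries were thus lowest for Arntl and stood apart from both other pairs, and the level in the CP-labelled ones was 1.86-fold higher (log2 fold change 0.90 ± 0.06, edgeR quasi-likelihood adjusted p = 1.4e-09). Cry1 was 3.17-fold higher in the CP-labelled libraries, and Nfil3 was higher by 0.58 ± 0.05 and Npas2 by 0.53 ± 0.21 on the log2 scale. Npas2 was low, with 50 and 41 normalized counts in the CPN-labelled libraries and 65 and 67 in the CP-labelled ones. It passed the filter through Per/Nr1d_KO, with 311 and 259. Differences shared by a whole chromosome, described below, were not subtracted for these targets. The directions of these 4 targets are those that the names of the deposited counts would give. CP-labelled and CPN-labelled therefore stand for the recorded label only, and no difference between these pairs is stated as an effect of NR1D. Cry1 held between 5401 and 5442 normalized counts in the CP-labelled libraries and between 1531 and 1730 in the other 4, Nr1d1 held between 9187 and 9473 against between 3153 and 5346, and Nr1d2 between 7955 and 8382 against between 4873 and 5690. Cry2 was lowest in Per/Nr1d_KO (1104 and 1164, with 6501 to 7896 elsewhere), as were Per2 (1001 and 1084, with 4859 to 6793 elsewhere) and Per1 (2096 and 2373, with 3061 to 5755 elsewhere). The libraries held between 53764390 and 85927236 counts. Fibroblast markers added up to between 13090 and 27000 CPM (counts scaled to the library total times edgeR's TMM factor), highest in Per/Nr1d_KO, with 9 of 12 tested. The part of these markers in the results was not tested. The lists of epithelial, endothelial, immune, pluripotent and neural markers each stayed at or under 4.91 CPM.

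Of the 36 genes, 35 were lower by the adjusted p in the CP-labelled libraries than in the CPN-labelled ones, and 0 were higher. The Cry/Per_KO and Cry/Per/Nr1d_KO lines were compared to show what NR1D1 and NR1D2 do in cells without CRY and PER. By the recorded genotype these 35 genes were lower in Cry/Per_KO, while by the names of the deposited counts they were higher in it, by the same amounts. The known NR1D targets had the direction of the second reading. All 36 had a log2 fold change below 0 in the CP-labelled libraries relative to the CPN-labelled ones, with a median of -0.90 (quartiles -1.08 and -0.68), where the median of all genes tested was 0.00. That of Polr1a did not pass the adjusted p, and it turned above 0 with other scalings. A gene was called when its Benjamini-Hochberg adjusted p in edgeR's quasi-likelihood test was under 0.05 and its log2 fold change, up or down, exceeded 0.81, the study's fold limit. By this rule 19 genes fell and 0 rose, when 8.87% of all genes tested fell and 7.90% rose. DESeq2 called the same numbers, and 0 of the 36 rose at an unadjusted p under 0.05 in edgeR. With the adjusted p alone, 35 genes fell, when 38.3% of all genes tested fell, 38.6% rose and 76.9% did either, and the exception was Polr1a, whose log2 fold change was -0.0073. Both CP-labelled libraries were below both CPN-labelled libraries for 35 genes, beside 43.3% of all genes tested. Of all genes tested, 7.64% had a log2 fold change below the median of the 36. Together the 36 genes took 0.937% and 0.936% of the counts in the CPN-labelled libraries, 0.541% and 0.534% in the CP-labelled ones, and 0.694% and 0.703% in Per/Nr1d_KO.

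Per/Nr1d_KO and the CPN-labelled libraries were closer to each other for these genes. Per/Nr1d_KO was compared with Cry/Per/Nr1d_KO to show what CRY1 and CRY2 do, which is this comparison by the recorded genotype and the next one, with the CP-labelled libraries, by the names of the deposited counts. Only 1 of the 36 was called, the nucleolin gene Ncl, which fell, and 0 were called higher, when 9.40% of all genes tested fell and 11.2% rose. The median log2 fold change was -0.16, with all genes tested at 0.00. With the adjusted p alone, 20 genes fell and 7 rose, beside 38.0% and 38.4% of all genes tested, so that most changes here were within the fold limit. At an unadjusted p under 0.05 the numbers were 21 and 7, and DESeq2 also called 1 gene lower and 0 higher. The libraries did not overlap for 24 genes that were lower and 9 that were higher in Per/Nr1d_KO, and 43.6% of all genes tested did so in each direction.

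Relative to the CP-labelled libraries, Per/Nr1d_KO had a median log2 fold change of 0.81 over the 36 genes, with all genes tested at 0.02. Of the 36, 18 rose and 0 fell by the rule with the fold limit, beside 14.9% and 14.1% of all genes tested, and DESeq2 called the same numbers. The number that rose was 11 with scaling by library total, 12 with a test against the fold limit itself (glmTreat) and 7 with the median of each chromosome subtracted. With the adjusted p alone 30 rose and 4 fell, beside 42.4% and 40.0% (82.3% in either direction), and the 4 that fell were Ubtf, Ncl, Rrp9 and Ddx10. At an unadjusted p under 0.05 in edgeR 31 rose and 4 fell. The libraries did not overlap for 32 genes that were higher and 4 that were lower, beside 46.7% and 44.0% of all genes tested. This comparison shares libraries with the other ones, so its values are not separate support for them. With the names exchanged, the 19 genes would be higher in Cry/Per_KO than in Cry/Per/Nr1d_KO, 18 would be higher in Per/Nr1d_KO than in Cry/Per/Nr1d_KO, and Ncl would be lower in Per/Nr1d_KO than in Cry/Per_KO.

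**Figure D1:**
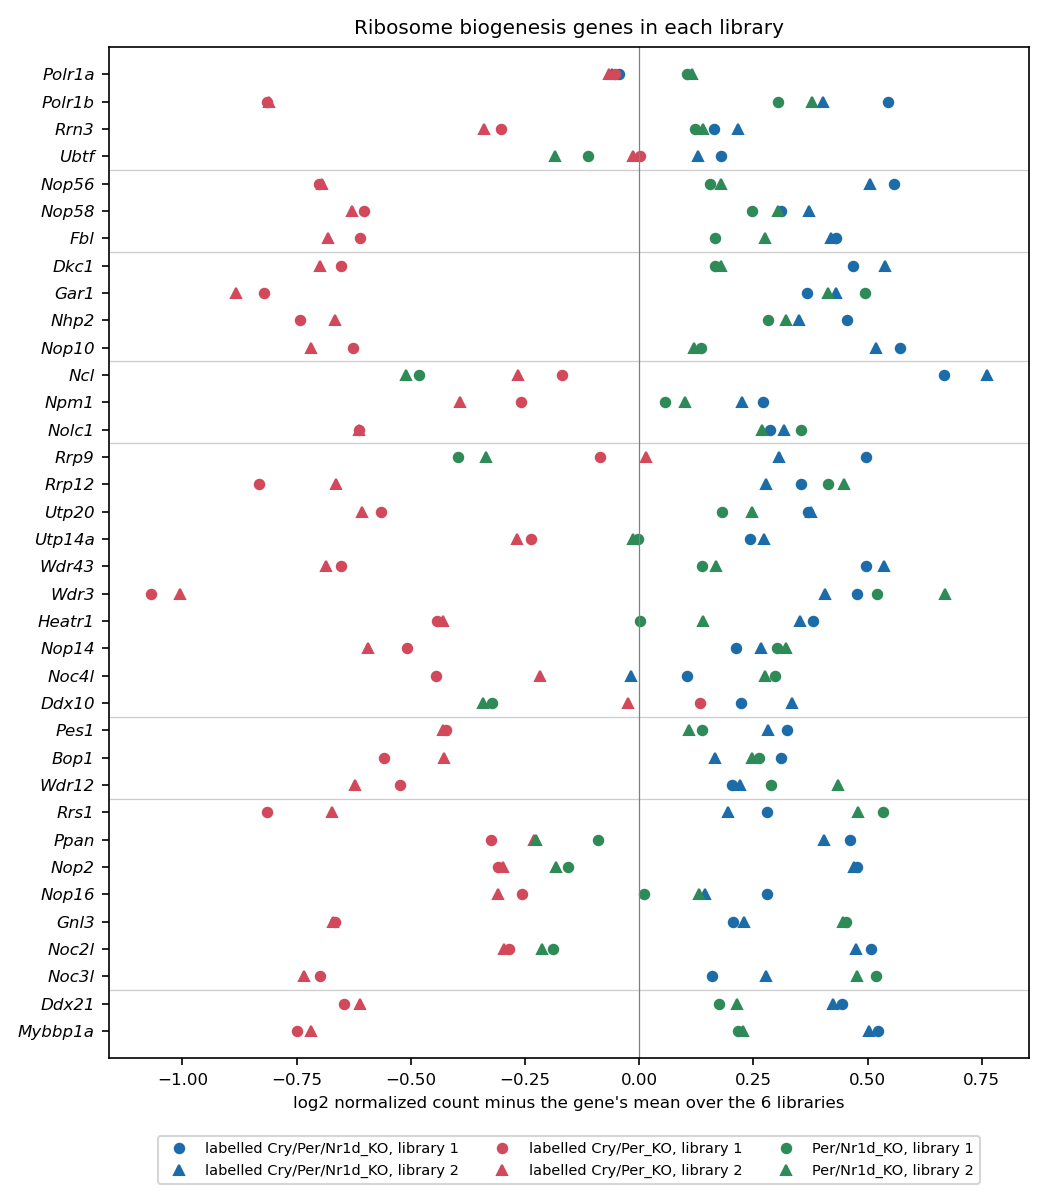
Each row is 1 gene, grouped by role, and each point is 1 library, plotted as its log2 normalized count minus the mean of that gene over the 6 libraries, with color for the line and shape for the library. The red points of the CP-labelled libraries have the lowest mean in 32 of 36 rows, and in the rows of Ubtf, Ncl, Rrp9 and Ddx10 the green points of Per/Nr1d_KO have it.

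The group with the lowest level was thus the same for most of the 36 genes. The mean was lowest in the CP-labelled libraries for 32 genes and in Per/Nr1d_KO for 4, whereas over all genes tested these shares were 36.8% and 35.8%. The CPN-labelled libraries had the highest mean for 24 genes and Per/Nr1d_KO for 12, compared to 27.0% and 37.7% of all genes tested. Libraries of 1 line were close to each other, since the larger of the values of a pair was at most 1.17 times the smaller, in Noc4l, and at most 1.14 times in Rrp9 and 1.12 times in Rrp12, for all 36 genes and 3 lines. In what follows, values are normalized counts scaled by edgeR's TMM method to the mean library size, the value of library 1 stands before that of library 2, and ± gives the standard error (SE) of a log2 fold change. A signed value, or the amount by which a gene fell, is a log2 fold change.

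Among the genes of RNA polymerase I transcription, subunits of the same enzyme differed. Polr1a, which encodes the largest subunit, had 14342 and 14194 normalized counts in the CPN-labelled libraries, 14266 and 14127 in the CP-labelled ones, and 15914 and 16028 in Per/Nr1d_KO. The CP- and CPN-labelled pairs overlapped, and Per/Nr1d_KO was a little above both (log2 fold change over the CP-labelled libraries 0.17 ± 0.04). With the median of all genes on its chromosome subtracted, Polr1a was at -0.36 between the CP- and CPN-labelled pairs and at 0.59 in Per/Nr1d_KO over the CP-labelled ones. Polr1b, the second largest subunit, had 5033 and 4561, then 1961 and 1968, and then 4261 and 4485. Its level in the CP-labelled libraries was apart from all others, with a log2 fold change of -1.29 ± 0.06 against the CPN-labelled ones (edgeR quasi-likelihood adjusted p = 2.4e-11), which is 2.44-fold lower. Rrn3, the initiation factor that links the polymerase to its promoter, fell by 0.51, and Ubtf, which binds ribosomal DNA repeats, fell by 0.16, both within the fold limit. Ubtf went on to a lower level in Per/Nr1d_KO, with a log2 fold change of -0.30 against the CPN-labelled libraries. Thus 1 of 4 genes of this role was called, with a median log2 fold change of -0.34.

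The RefSeq promoter sequences of Polr1a and Polr1b are shown because the subunits differ in their values. Each line holds the 250 bases before the start of transcription, 5′ to 3′ on the strand of the gene in GRCm38.p6, the assembly of mm10. Polr1a lies at chr6:71908803-71909052 (+) and Polr1b at chr2:129100746-129100995 (+), and capitals mark a match to any of the 5 motifs searched, which are described with the promoters of the other genes.
Polr1a: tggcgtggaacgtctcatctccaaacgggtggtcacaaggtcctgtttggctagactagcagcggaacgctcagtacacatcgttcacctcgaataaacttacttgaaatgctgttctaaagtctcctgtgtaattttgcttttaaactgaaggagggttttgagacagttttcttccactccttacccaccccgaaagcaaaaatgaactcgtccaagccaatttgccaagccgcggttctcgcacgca
Polr1b: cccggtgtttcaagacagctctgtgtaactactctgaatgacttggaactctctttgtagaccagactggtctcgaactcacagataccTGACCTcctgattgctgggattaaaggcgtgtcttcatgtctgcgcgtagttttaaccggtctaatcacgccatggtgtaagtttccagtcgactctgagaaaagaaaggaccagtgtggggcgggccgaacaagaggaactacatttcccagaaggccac
The window of Polr1a held no match, and that of Polr1b held 1 match to AGGTCA, the core sequence bound by NR1D proteins and other nuclear receptors, on the opposite strand and 161 bases before the start. A match describes letters and does not show binding.

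All 3 genes of the box C/D snoRNP, which guides 2′-O-methylation of ribosomal RNA, were called lower in the CP-labelled libraries, with a median log2 fold change of -1.07. Nop56, a core scaffold of the particle, had 16624 and 16014 normalized counts in the CPN-labelled libraries, 6943 and 6979 in the CP-labelled ones, and 12562 and 12772 in Per/Nr1d_KO. No libraries of different lines overlapped, and the log2 fold change between the first pairs was -1.23 ± 0.04 (edgeR quasi-likelihood adjusted p = 1.8e-12). Nop58, its partner in the scaffold, had 24309 and 25382, then 12916 and 12685, and then 23276 and 24206. The CP-labelled libraries of Nop58 stood far below the rest, at -0.96 ± 0.04, and Per/Nr1d_KO was slightly below the CPN-labelled libraries (-0.065 ± 0.042, not past the adjusted p, and -0.34 with the chromosome median subtracted). Fbl, the methyltransferase fibrillarin, was far lower in counts, with 549 and 544, then 266 and 254, and then 456 and 492. It had the same order, a log2 fold change of -1.07 ± 0.10, and 19.7% of its 50-base stretches in common with other genes, as did Nop56 with 18.7%, so that reads of 50 bases from these stretches could have been split or lost in counting.

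The box H/ACA snoRNP converts uridines of ribosomal RNA to pseudouridine and also belongs to telomerase. All 4 of its genes were called lower in the CP-labelled libraries, with log2 fold changes between -1.25 and -1.11, although Gar1 went from -1.25 to -0.61 and lost its call when the median of its chromosome was subtracted. Dkc1, the pseudouridine synthase dyskerin, had 15910 and 16714 normalized counts in the CPN-labelled libraries, 7320 and 7083 in the CP-labelled ones, and 12904 and 13021 in Per/Nr1d_KO. Gar1 had 5060 and 5284, then 2219 and 2125, and then 5524 and 5220. Dkc1 took a middle level in Per/Nr1d_KO, whereas the Gar1 libraries of Per/Nr1d_KO and of the CPN-labelled ones overlapped. The structural proteins followed, Nhp2 with 7166 and 6665, then 3123 and 3296, and then 6351 and 6528. For Nop10 the values were 3694 and 3561, then 1609 and 1511, and then 2728 and 2699. Against the CP-labelled libraries, Per/Nr1d_KO was called higher for Dkc1, Gar1 and Nhp2 (1.80-fold, 2.47-fold and 2.01-fold), of which Gar1 went from 1.31 to 0.44 on the log2 scale and lost its call with the chromosome median subtracted. Nop10 was just within the fold limit at 0.80 (1.74-fold, edgeR quasi-likelihood adjusted p = 1.9e-09).

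The nucleolar chaperones and scaffolds did not share 1 order. Ncl encodes nucleolin, an abundant protein of nascent ribosomal RNA, and had the highest level per kilobase of exon of the 36 genes, with a mean of 10968 normalized counts per kilobase. Its values were 165739 and 176949 normalized counts in the CPN-labelled libraries, 92868 and 86862 in the CP-labelled ones, and 74754 and 73296 in Per/Nr1d_KO. No libraries of different lines overlapped and Per/Nr1d_KO was lowest, with a log2 fold change of -1.21 ± 0.05 against the CPN-labelled libraries (edgeR quasi-likelihood adjusted p = 3.1e-12), which is 2.32-fold lower and the only call in that comparison. Nolc1, which encodes the snoRNP chaperone Nopp140, had 24702 and 25198, then 13228 and 13226, and then 25882 and 24402. Its CPN-labelled libraries lay between those of Per/Nr1d_KO, with a log2 fold change of 0.011 ± 0.042, and the CP-labelled libraries were 1.89-fold lower than the CPN-labelled ones. Npm1, which encodes the histone and ribosome chaperone nucleophosmin, fell by 0.57 in the CP-labelled libraries and by 0.17 in Per/Nr1d_KO, both relative to the CPN-labelled ones and within the fold limit, and 24.3% of its 50-base stretches occur in other genes. Npm1 and Ncl together made up 31.1% and 32.4% of the counts of the 36 genes in the CPN-labelled libraries, 32.4% and 30.8% in the CP-labelled ones, and 20.8% and 20.5% in Per/Nr1d_KO.

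Ddx21, an RNA helicase that binds ribosomal RNA and snoRNAs, and Mybbp1a, a nucleolar protein that binds MYB and represses RNA polymerase I, were both called lower in the CP-labelled libraries. Ddx21 had 37435 and 36974 normalized counts in the CPN-labelled libraries, 17597 and 18013 in the CP-labelled ones, and 31098 and 31931 in Per/Nr1d_KO. Mybbp1a had 55454 and 54696, then 22955 and 23469, and then 44875 and 45195. Neither gene had overlapping libraries between lines. The log2 fold change of Mybbp1a in the CP-labelled libraries was -1.25 ± 0.04 (edgeR quasi-likelihood adjusted p = 1.0e-12), and in Per/Nr1d_KO it was -0.29 ± 0.04, both against the CPN-labelled ones. Ddx21 in Per/Nr1d_KO relative to the CP-labelled libraries was close to the fold limit, at 0.82 (1.77-fold), and Wdr43, described with the small subunit genes, had the same rounded value. Utp20 was just within the limit at 0.80.

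The small subunit processome was represented by 10 genes, of which 4 were called lower in the CP-labelled libraries and all 10 were lower by the adjusted p alone (median log2 fold change -0.80). Wdr3, a WD-repeat protein of the processome, showed the largest fall of the 36, from 7387 and 7039 normalized counts in the CPN-labelled libraries to 2530 and 2643 in the CP-labelled ones, with 7611 and 8447 in Per/Nr1d_KO. The CP-labelled libraries were 2.79-fold lower than the CPN-labelled ones (log2 fold change -1.48 ± 0.06, edgeR quasi-likelihood adjusted p = 4.8e-12), and Per/Nr1d_KO was above the CPN-labelled libraries by 0.16. With the median of its chromosome subtracted these values became -0.84 and -0.072, and the fall of Wdr3 was no longer the largest. Exons of genes on the opposite strand cover 16.2% of its exon bases. Rrp12, needed for export of both subunits, had 6176 and 5857, then 2711 and 3048, and then 6433 and 6589. Utp20, a large scaffold protein of the processome, had 24933 and 25057, then 13042 and 12675, and then 21879 and 22904. Both were called lower in the CP-labelled libraries, at -1.06 and -0.96. In Per/Nr1d_KO, Utp20 was below the CPN-labelled libraries. Rrp12 was above them at 0.11, which was not past the adjusted p, and at -0.105 with the chromosome median subtracted. Wdr43, a subunit of an early part of the processome, had 20397 and 20968, then 9200 and 8986, and then 15917 and 16263, and was 2.27-fold lower in the CP-labelled libraries than in the CPN-labelled ones.

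Several small subunit genes were within the fold limit. Nop14, which acts in nuclear steps of small subunit maturation, had 10606 and 11030 normalized counts in the CPN-labelled libraries, 6443 and 6068 in the CP-labelled ones, and 11301 and 11455 in Per/Nr1d_KO. It was within the fold limit between the first pairs (-0.79 ± 0.05), as was Heatr1 (-0.80 ± 0.05), a processome protein also needed for RNA polymerase I transcription, which was nearest the limit. With chromosome medians subtracted both were called, at -0.88 for Nop14 and -1.16 for Heatr1. Without that step, the nearest beyond it was Gnl3 at -0.89. Nop14 was called higher in Per/Nr1d_KO than in the CP-labelled libraries (0.86). This call was lost with the chromosome median subtracted (0.79), with upper-quartile scaling (0.80) and with scaling by library total (0.77). Ddx10, an RNA helicase, had 4823 and 5210, then 4535 and 4062, and then 3308 and 3264. Per/Nr1d_KO was lowest for Ddx10, and its log2 fold change against the CP-labelled libraries was -0.39 ± 0.06, the lowest of the 36 in that comparison, which turned to 0.46 with the chromosome median subtracted. Rrp9, a protein of the U3 snoRNP, was also lowest in Per/Nr1d_KO, with a log2 fold change of -0.77 ± 0.06 against the CPN-labelled libraries, within the fold limit. Without library 2 of the CPN-labelled ones this value became -0.86 and Rrp9 was called, whereas with the median of its chromosome subtracted it was -0.30. Noc4l, a partner of Nop14, and Utp14a, which activates a helicase of the processome, fell by 0.37 and 0.51 in the CP-labelled libraries relative to the CPN-labelled ones.

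The 3 genes of the PeBoW complex, which is needed for maturation of the large subunit RNAs, were within the fold limit in the CP-labelled libraries relative to the CPN-labelled ones. Pes1 and Bop1 fell by 0.73 each and Wdr12 by 0.79, all past the adjusted p alone, and with chromosome medians subtracted the values were -0.77 for Pes1, -0.44 for Bop1 and -0.76 for Wdr12. Wdr12 had 2801 and 2836 normalized counts in the CPN-labelled libraries, 1691 and 1581 in the CP-labelled ones, and 2970 and 3288 in Per/Nr1d_KO. Per/Nr1d_KO was highest for Wdr12, though at -0.12 relative to the CPN-labelled libraries with the chromosome median subtracted, and was called higher than the CP-labelled libraries (0.94 ± 0.06, edgeR quasi-likelihood adjusted p = 9.7e-10), a call that was lost at 0.69 with the same subtraction. Pes1 was at 0.55 and Bop1 at 0.75 in the same comparison, and Bop1 at 0.41 with the subtraction.

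The 7 genes of large subunit assembly fell into separate patterns in Per/Nr1d_KO. Rrs1, which helps to bring the 5S particle into the subunit, had 4666 and 4393 normalized counts in the CPN-labelled libraries, 2182 and 2411 in the CP-labelled ones, and 5559 and 5353 in Per/Nr1d_KO. Gnl3, the GTP-binding protein nucleostemin, had 9111 and 9275, then 4985 and 4970, and then 10828 and 10770. Noc3l, which acts with Noc2l on early large subunit particles, had 5354 and 5808, then 2954 and 2880, and then 6860 and 6672. In each of these 3 genes Per/Nr1d_KO was highest and did not overlap with either other line, but subtracting chromosome medians turned the difference from the CPN-labelled libraries for Gnl3 (0.23 to -0.28) and Rrs1 (0.27 to -0.0063). The CP-labelled libraries were called lower than the CPN-labelled ones, by 0.98, 0.89 and 0.94 on the log2 scale. Noc3l had the largest rise of the 36 in Per/Nr1d_KO relative to the CPN-labelled libraries, at 0.28 ± 0.05, but was at 0.059 with the chromosome median subtracted, when Polr1a at 0.25 was the highest. By contrast and without that subtraction, Nop2, a cytosine methyltransferase of ribosomal RNA, Noc2l and Ppan were low in both other lines. Relative to the CPN-labelled libraries, Nop2 was at -0.78 in the CP-labelled ones and at -0.64 in Per/Nr1d_KO. Noc2l, which forms a complex with Noc3l, was at -0.78 and -0.69 in the same order. Ppan, a factor for processing of the large subunit RNAs, was at -0.71 and -0.59, but with the chromosome median subtracted it was at -1.09 and -0.12 and so no longer at a like level in both. After the same step Nop2 was at -1.12 and -0.55 and Noc2l at -0.85 and -0.53, past the fold limit in the CP-labelled libraries only. For Noc2l, 20.9% of exon bases lie under exons of the opposite strand, and since the strand setting of the counting is not given in the sources used here, reads of the neighbour cannot be told apart from its own. Nop16, another nucleolar factor of the large subunit, fell by 0.50 in the CP-labelled libraries and by 0.14 in Per/Nr1d_KO, and was at -0.85 and -0.35 with the chromosome median subtracted.

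**Figure D2:**
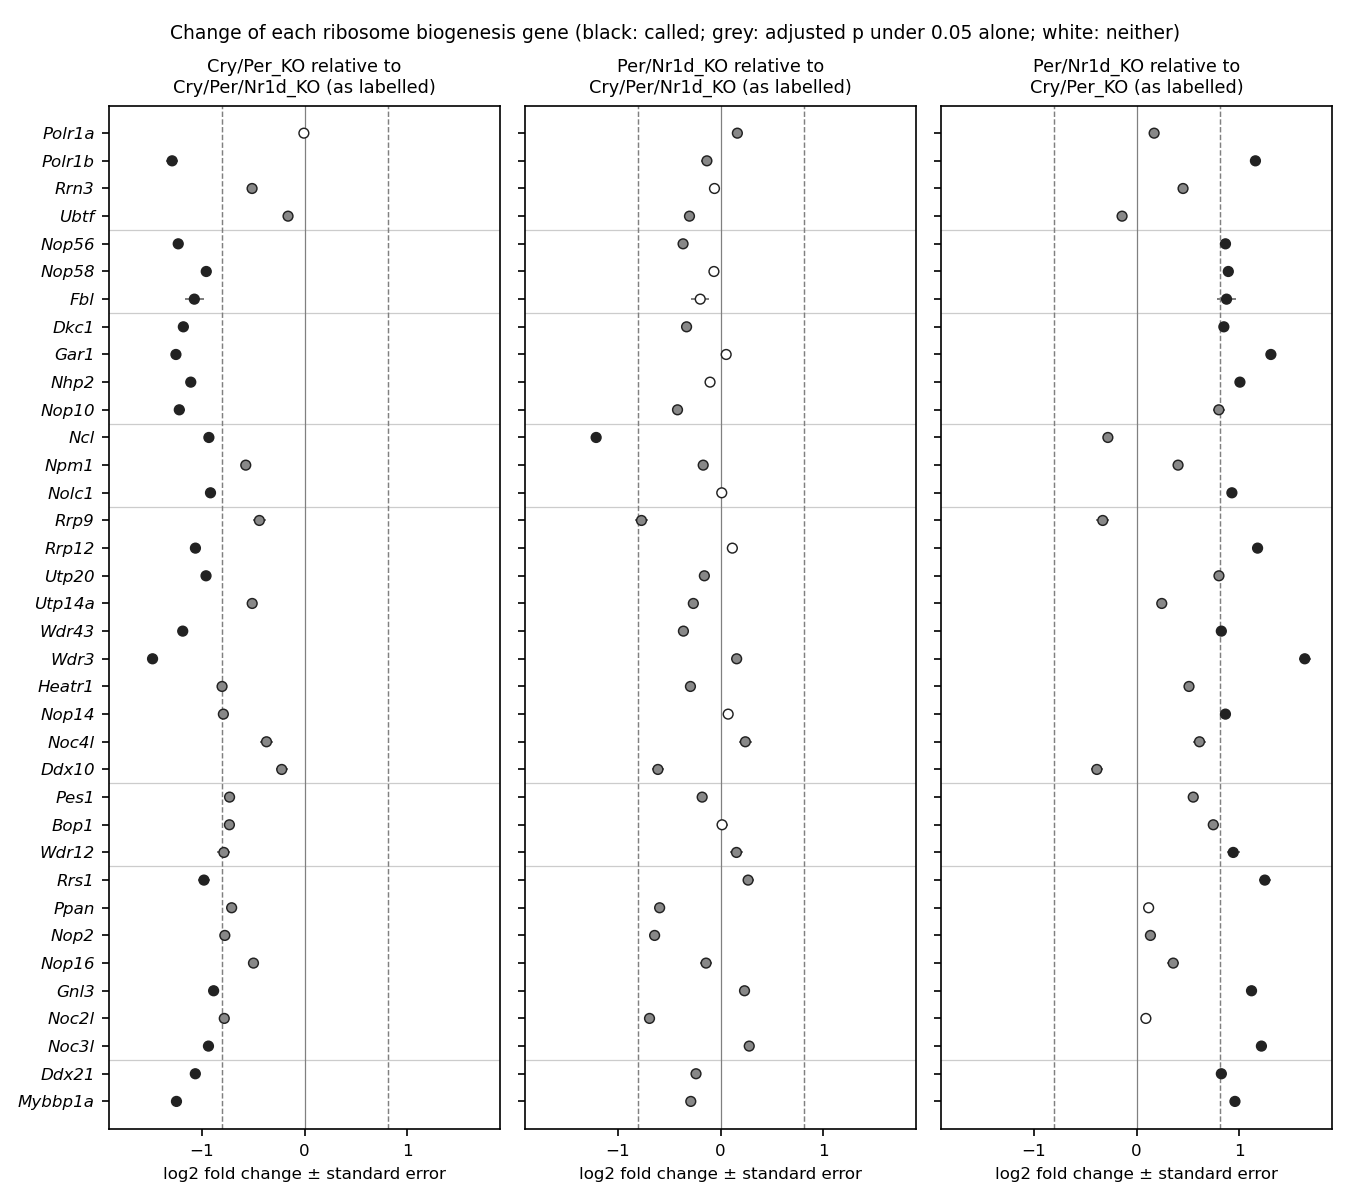
Points give the log2 fold change of each gene and bars its standard error in the 3 comparisons, with the fold limit as dashed lines, black points for called genes, grey for genes past the adjusted p alone and white for the others. In the left panel all 36 points lie at or below 0 and 19 are black, in the middle panel only Ncl is black, and in the right panel 18 are black, all above 0.

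The share of called genes varied between roles. In the CP-labelled libraries relative to the CPN-labelled ones, the called genes were 3 of 3 in the box C/D snoRNP, 4 of 4 in the box H/ACA snoRNP, 2 of 2 for Ddx21 and Mybbp1a, 2 of 3 chaperones and scaffolds, 4 of 10 in the small subunit processome, 3 of 7 in large subunit assembly, 1 of 4 in RNA polymerase I transcription and 0 of 3 in the PeBoW complex. With chromosome medians subtracted these numbers became 7 of 10 in the small subunit processome, 7 of 7 in large subunit assembly and 3 of 4 in the box H/ACA snoRNP, and the other roles kept theirs, so that the order of the roles depends on this step. Of all genes tested, 8.87% were called lower in this comparison without that step. These roles hold few genes each and their difference was not tested.

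A further property that the list did not use was position. Across all genes tested, the median log2 fold change differed by chromosome. On chromosome 3 it was -0.64 between the CP- and CPN-labelled libraries and 0.87 between Per/Nr1d_KO and the CP-labelled ones, and on chromosome 9 it was 0.38 and -0.85. The 36 genes lie on 17 chromosomes. Wdr3 and Gar1, which had the largest rises in Per/Nr1d_KO relative to the CP-labelled libraries, are the genes on chromosome 3. Rrp9, Ddx10 and Ppan, none of which passed the test as higher there, are the genes on chromosome 9, and Polr1a and Nop2 are on chromosome 6, whose median was 0.35 in the CP-labelled libraries relative to the CPN-labelled ones. When the median of its chromosome was subtracted from the value of each gene, the standard deviation over the 36 genes went from 0.34 to 0.26 in that comparison, from 0.33 to 0.28 in Per/Nr1d_KO relative to the CPN-labelled libraries, and from 0.49 to 0.32 relative to the CP-labelled ones. After the subtraction all 36 genes were below 0 in the CP-labelled libraries relative to the CPN-labelled ones, with a median of -0.87 and 25 past the fold limit and the adjusted p. Those gained were Rrp9, Heatr1, Nop14, Ppan, Nop2, Nop16 and Noc2l, and Gar1 was lost. Wherever chromosome medians were subtracted, the adjusted p is that of the test before the subtraction, and only the fold change differs. Polr1a went to -0.36, Nop2 to -1.12, and Wdr3 to -0.84. In Per/Nr1d_KO relative to the CP-labelled libraries the median went to 0.67, 7 genes were past the limit, and Rrp9 and Ddx10 turned to 0.52 and 0.46. The calls lost there were those of Nop56, Nop58, Fbl, Gar1, Nolc1, Wdr43, Wdr3, Nop14, Wdr12, Gnl3 and Ddx21, with Wdr3 at 0.77 and Gnl3 at 0.51. Restricted to genes on chromosomes whose median lay within 0.25 of 0, 16 of 25 were called in the first comparison, where 14.3% of genes tested on these chromosomes were called in either direction, and 12 of 23 in the last, where 22.9% were. What makes chromosomes differ between the lines was not tested.

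**Figure D3:**
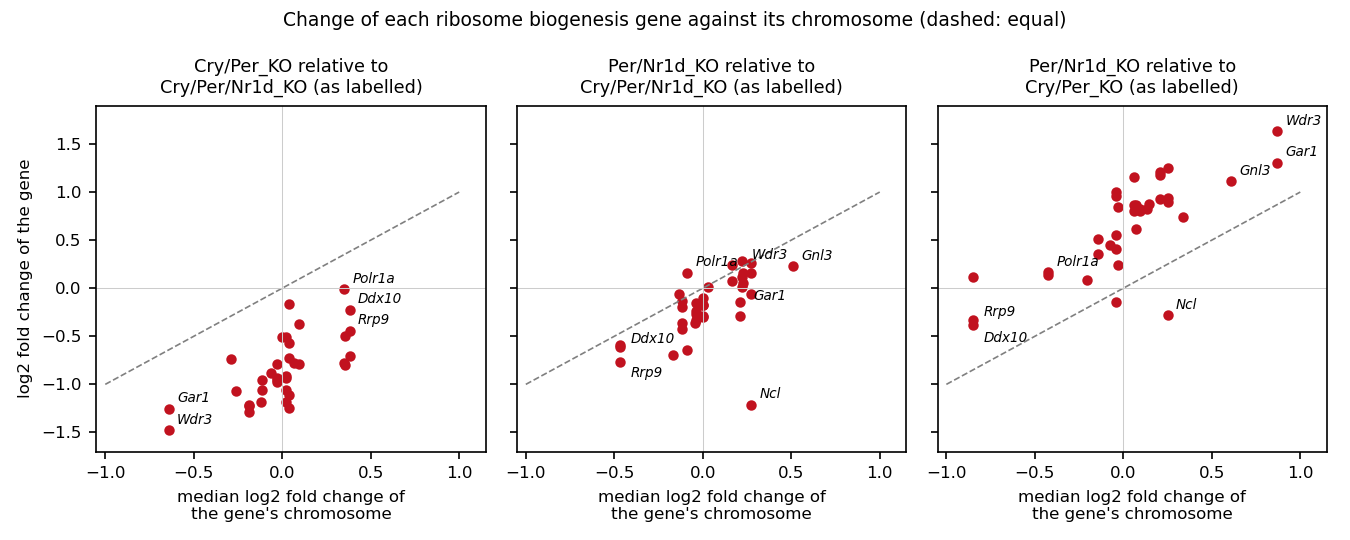
The vertical axis gives the log2 fold change of each gene and the horizontal axis the median log2 fold change of all genes tested on its chromosome, with a dashed line where both are equal. In the left panel every point lies below the line, in the middle panel 32 of 36 do, and in the right panel 34 lie above it, with Ncl and Ubtf below.

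Calls were also counted among the genes that share little sequence with others. Of the 36 genes, 7 have at least 10% of their 50-base stretches in other genes or of their exon bases under exons of the opposite strand (Nop56, Fbl, Npm1, Pes1, Noc2l, Wdr3 and Utp14a). Without them, 16 of 29 genes were called lower in the CP-labelled libraries than in the CPN-labelled ones, with a median log2 fold change of -0.92. In Per/Nr1d_KO 1 of 29 was called lower than in the latter and 15 of 29 higher than in the former. Over all genes tested, the shares called in these directions were 8.87%, 9.40% and 14.9%, in the same order.

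In their promoters, 31 of the 36 genes could be searched with the RefSeq table of GRCm38.p6, which gives 250 bases before and 50 bases after a start of transcription (39 windows, since some genes have several starts). The 5 genes without an entry were Rrp12, Fbl, Npm1, Rrs1 and Bop1. Both strands were searched for CACGTG, the E-box that reads the same on both strands, for CACGCG, a related sequence that cannot be the same match, for AGGTCA, for the motif of NRF1, and for CCGGAAG, an ETS motif. CACGTG was in 6 of 31 genes (19.4%), compared to 12.1% of genes tested and 8.09% of all genes in the table. CACGCG was in 12 (38.7%), compared to 20.7% and 10.5%. AGGTCA was in 7 (22.6%), compared to 14.2% and 18.1%, and CCGGAAG in 11 (35.5%), compared to 21.0% and 9.93%. The motif of NRF1 was in 0 of the 31, compared to 2.47% of genes tested and 1.07% of all genes. Among 99 other ribosome biogenesis genes with an entry the shares were 21.2% for CACGTG, 28.3% for CACGCG, 5.05% for AGGTCA, 47.5% for CCGGAAG and 2.02% for the motif of NRF1, so that CACGTG and CCGGAAG were no more frequent in the 36 genes than in these.

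The 7 matches to CACGTG, in capitals, are shown with up to 12 bases on each side, on the strand of the gene, because the E-box is the site of the activator that CRY and PER proteins repress. They lie at chr11:72441355-72441376 (+) for Mybbp1a, chr6:125131811-125131840 (+) for Nop2, chr11:3963965-3963994 (+) for Pes1, chr16:13780472-13780501 (+) and chr16:13780639-13780668 (+) for Rrn3, chr10:88826765-88826789 (-) for Utp20 and chr17:71616220-71616249 (+) for Wdr43.
Mybbp1a, 40 bases after the start: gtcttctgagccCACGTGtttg
Nop2, 60 bases before the start: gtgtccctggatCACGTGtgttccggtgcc
Pes1, 2 bases after the start: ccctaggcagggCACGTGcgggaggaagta
Rrn3, 215 bases before the start: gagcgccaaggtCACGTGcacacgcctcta
Rrn3, 48 bases before the start: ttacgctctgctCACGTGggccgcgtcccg
Utp20, 37 bases after the start: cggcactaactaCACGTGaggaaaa
Wdr43, 17 bases after the start: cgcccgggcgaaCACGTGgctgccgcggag
Of these 6 genes, 3 were called lower in the CP-labelled libraries than in the CPN-labelled ones (Mybbp1a, Utp20 and Wdr43), and of the 25 genes without a match 13 were. The median log2 fold changes were -0.87 with and -0.89 without the E-box. For AGGTCA, 4 of 7 genes with a match and 12 of 24 without were called.

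The windows of Mybbp1a, which had the smallest adjusted p of the 36 in the CP-labelled libraries relative to the CPN-labelled ones, and Nolc1, which differed least between Per/Nr1d_KO and the latter, are shown for the related letters. They are the 250 bases before the start at chr11:72441077-72441326 (+) and chr19:46075597-46075846 (+), with capitals for CACGCG on either strand, overlapping in Mybbp1a, and for CCGGAAG in Nolc1.
Mybbp1a: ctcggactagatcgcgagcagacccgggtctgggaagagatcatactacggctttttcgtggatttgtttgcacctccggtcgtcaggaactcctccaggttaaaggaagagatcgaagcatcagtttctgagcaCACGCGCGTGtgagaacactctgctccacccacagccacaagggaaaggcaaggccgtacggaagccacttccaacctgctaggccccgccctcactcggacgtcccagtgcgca
Nolc1: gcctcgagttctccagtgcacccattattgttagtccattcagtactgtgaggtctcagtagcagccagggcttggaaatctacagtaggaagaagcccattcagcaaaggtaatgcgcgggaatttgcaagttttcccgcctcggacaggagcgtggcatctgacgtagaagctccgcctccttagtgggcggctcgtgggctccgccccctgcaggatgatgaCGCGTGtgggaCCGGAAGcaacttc

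Host genes of snoRNAs were frequent among the 36. The introns of such genes carry the snoRNAs that guide modification of ribosomal RNA. In GENCODE vM21, 7 of the 36 genes (19.4%) contain snoRNA genes on their own strand, 21 in all, compared to 1.94% of 11195 genes tested and 2.52% of 119 other ribosome biogenesis genes. The hosts were Nop56, Nop58, Dkc1, Ncl, Wdr43, Ppan and Gnl3, of which 6 were called lower in the CP-labelled libraries, the exception being Ppan at -0.71, which was called with the chromosome median subtracted, and 8.87% of all genes tested were called lower. The 36 genes were also highly expressed, with a median of 2183 normalized counts per kilobase of exon, compared to 569 over genes tested, and 34 of 36 were above the latter value. Fbl was lowest at 101.

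Most other genes of the pathway moved the same way between the CP- and CPN-labelled pairs, with a smaller median. Of 119 further ribosome biogenesis genes, 29 were called lower and 0 higher in the CP-labelled libraries relative to the CPN-labelled ones, with a median log2 fold change of -0.54. By the adjusted p alone 101 fell and 3 rose. DESeq2 called 28 lower and 0 higher, and 3 rose at an unadjusted p under 0.05 in edgeR. Of all genes tested, 8.87% were called lower and 7.90% higher, and 38.3% fell and 38.6% rose by the adjusted p alone. In Per/Nr1d_KO relative to the CPN-labelled libraries, 2 of the 119 were higher and 1 lower (median -0.071), beside 11.2% and 9.40% of all genes tested. Relative to the CP-labelled libraries 30 were higher and 0 lower (median 0.51), beside 14.9% and 14.1%. DESeq2 called 1 higher and 1 lower, and then 28 higher and 0 lower. The largest falls in the first comparison were in Znhit6, a snoRNP assembly factor, Rpf1, of the large subunit, and Cd3eap, a subunit of RNA polymerase I, at -1.60, -1.52 and -1.46. Znhit6 had 2961 and 3042 normalized counts in the CPN-labelled libraries, 978 and 1001 in the CP-labelled ones, and 4258 and 4155 in Per/Nr1d_KO. The edgeR calls between Per/Nr1d_KO and the CPN-labelled libraries were Ngdn (0.82), Nop9 (0.81) and Taf1d (-0.82), all close to the fold limit. Ngdn and Nop9 act in the small subunit and Taf1d in the initiation of RNA polymerase I. The largest rises in Per/Nr1d_KO relative to the CP-labelled libraries were in Znhit6 at 2.09, in Ngdn, with 3375 and 3567 normalized counts compared to 1208 and 1240, and in Spata5, an ATPase of large subunit maturation, at 1.42. Chromosome medians were not subtracted for the 119 genes, so how far these extremes follow their chromosomes was not tested. In Per/Nr1d_KO relative to the CPN-labelled libraries, such medians reached -0.47 on chromosome 9 and 0.51 on chromosome 14.

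Neighbouring processes had smaller medians, and their difference from the 36 genes was not tested. Of 76 genes of cytosolic ribosomal proteins, 64 were tested. In the CP-labelled libraries relative to the CPN-labelled ones 1 was called higher and 3 lower, with a median log2 fold change of -0.29. By the adjusted p alone 5 rose and 35 fell. Of all genes tested, 7.90% were called higher and 8.87% lower in this comparison, and by the adjusted p alone 38.6% rose and 38.3% fell. Ribosomal protein genes took between 0.761% and 0.893% of the counts of a library. Sequence shared with other genes was examined for the 36 genes only. Loss of reads of ribosomal protein genes in counting was therefore not measured, and their share and median may depend on it. Of 22 proliferation genes, 0 were called in that comparison by edgeR and by DESeq2, although 15 fell and 5 rose by the adjusted p alone and also by the unadjusted p, with a median of -0.18. Of 14 genes of the RNA exosome and 11 of RNA polymerase III, 1 each was called lower, with medians of -0.47 and -0.36. By the adjusted p alone 11 fell and 2 rose in the exosome, and 8 fell and 1 rose in RNA polymerase III. Myc had 12335 and 12925 normalized counts in the CPN-labelled libraries, 8499 and 8528 in the CP-labelled ones, and 12572 and 11207 in Per/Nr1d_KO. It was lowest in the CP-labelled libraries without overlap, as most of the 36 genes were, with a log2 fold change of -0.57 ± 0.05 (edgeR quasi-likelihood adjusted p = 1.1e-07) that was within the fold limit, and its part in the change of the 36 genes was not tested. Chromosome medians were not subtracted for Myc or for the lists of neighbouring processes.

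**Figure D4:**
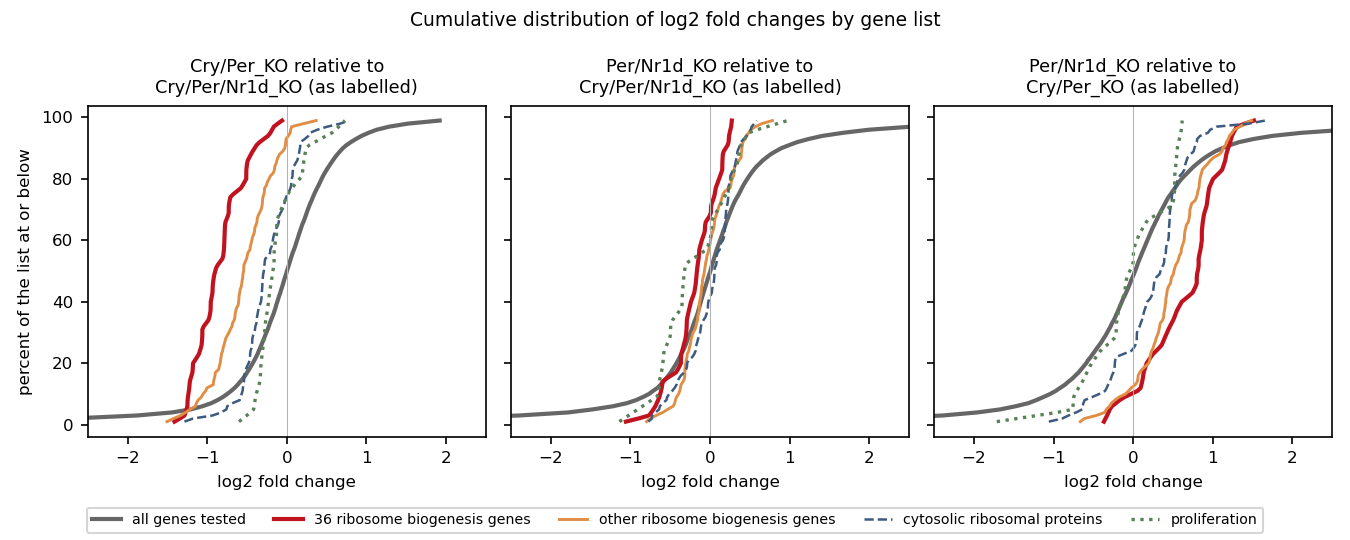
Curves give the percent of each gene list at or below a log2 fold change in the 3 comparisons, for the 36 genes, other ribosome biogenesis genes, cytosolic ribosomal proteins, proliferation genes and all genes tested. The curve of the 36 genes is left of that of all genes tested over most of the left panel, with medians of -0.90 and 0.00, and to its right over most of the right panel, with medians of 0.81 and 0.02, and the curves cross in the tails, where all genes tested reach further.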

How the data were processed

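Poly-A RNA of 3 cell lines, 2 libraries each, was sequenced as strand-specific, single-end reads of 50 bases. Alignment by the authors used RNA STAR and the mm10 genome, and the deposited values are raw featureCounts counts per Entrez gene, not normalized. Deposited tables of the authors' own DESeq2 comparisons (fold changes and p-values) were not used. Strand setting and treatment of multi-mapping reads are not given in the sources used here. Symbols matched 25275 of 27179 genes.

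Counts were analysed with edgeR 4.0.16 in R 4.3.3 (TMM, quasi-likelihood test, Benjamini-Hochberg over 11934 genes whose mean was 100 normalized counts or more, 1 fit of 6 libraries in 3 groups without a replicate term). Genes were called at an adjusted p under 0.05 and a log2 fold change beyond 0.81. The SE is the log2 fold change divided by the square root of F. The biological coefficient of variation was 0.0383. The median total was 62471571.5 counts. Libraries of a line came from separate RNA preparations, so p-values measure the spread between these, which may be technical, and not between independent lines. The fit was tested on simulated data.

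The 36 genes and all lists were chosen with earlier results of these data known. Values in every library are given for genes called in any comparison, the extremes of each comparison and at least 1 gene per role, and the rest by fold change. The 5 NR1D targets used to check the labels were chosen from textbook knowledge after results were known. Of other pathway genes, up to 3 called genes with the largest rise and fall are named. Alternatives were other scalings, filters, DESeq2 1.42.0, glmTreat, fewer libraries, a replicate block, chromosome medians subtracted and exchanged labels. Restrictions by shared sequence and by chromosome, and the study's DESeq2 limit on the adjusted p, were added after seeing the data.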

Additional observations from a re-analysis of the deposited data

How the results depend on the processing

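With 2 libraries per group, every SE rests on a spread shared over the 3 groups, and a lone library left after leaving one out is assumed to vary like the others. Leaving out each library in turn gave between 19 and 21 called genes in the CP-labelled libraries relative to the CPN-labelled ones (median -0.91 to -0.87), 1 to 2 in Per/Nr1d_KO relative to the latter (median -0.20 to -0.14) and 16 to 19 relative to the former (median 0.79 to 0.84). The second call in Per/Nr1d_KO was Rrp9, without library 2 of the CPN-labelled ones.

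In the order of these comparisons, DESeq2 called 19, 1 and 18 genes, DESeq2 with the study's stricter limit on the adjusted p called 18, 1 and 17, and glmTreat against the fold limit called 18, 1 and 12. Upper-quartile scaling moved the first and last medians to -0.86 and 0.75. Scaling by library total moved them to -0.83 and 0.72, with 11 genes called in the last comparison, and moved the medians of all genes tested there to 0.069 and -0.069, and the 7 genes lost were Nop56, Nop58, Fbl, Dkc1, Wdr43, Nop14 and Ddx21. With chromosome medians subtracted, 7 genes were called in the last comparison, with a median of 0.67. Genes with little shared sequence had a median of -0.13 in Per/Nr1d_KO relative to the CPN-labelled libraries, and among genes on chromosomes near 0 that comparison had 0 calls in edgeR, with 20 genes past the adjusted p alone. This restriction left out Ncl, which lies on chromosome 1 (median 0.27) and was at -1.48 with that median subtracted. Exchanged labels gave a median of 0.90 between Cry/Per_KO and Cry/Per/Nr1d_KO, 18 calls and a median of 0.81 for Per/Nr1d_KO relative to Cry/Per/Nr1d_KO, and 1 call and a median of -0.16 relative to Cry/Per_KO. Replicate numbers did not pair the libraries, since deviations of the same number had correlations of -0.21, -0.10 and -0.02 between lines, and the fit with the replicate block called 19, 1 and 18 genes, with 35, 26 and 34 past the adjusted p and medians of -0.90, -0.16 and 0.81.

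Some values changed sign. Polr1a between the CP- and CPN-labelled pairs became 0.0057 with median-of-ratios factors and with DESeq2, 0.0337 with upper-quartile scaling, 0.0618 with library totals and between -0.0148 and 0.0116 when each library was left out in turn. Nolc1 in Per/Nr1d_KO relative to the CPN-labelled libraries became -0.0071 (upper quartile), -0.0135 (totals), -0.2082 (chromosome) and between -0.0320 and 0.0530 (each library left out). Bop1 became -0.0040, -0.0108, -0.0135 and between -0.0558 and 0.0798 under the corresponding settings, and Noc2l relative to the CP-labelled libraries became -0.0035 with totals. Subtracting chromosome medians turned Rrn3 (0.0761), Gar1 (-0.1743), Rrp12 (-0.1050), Wdr3 (-0.0723), Nop14 (-0.0897), Wdr12 (-0.1194), Rrs1 (-0.0063) and Gnl3 (-0.2769) in Per/Nr1d_KO relative to the CPN-labelled libraries, and Rrp9 (0.5192) and Ddx10 (0.4619) relative to the CP-labelled ones, and of these Wdr3, Wdr12, Rrs1, Gnl3, Rrp9 and Ddx10 had been past the adjusted p. The cause of these changes was not tested.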

Other observations

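Over the 6 libraries, the genes outside all lists whose log2 CPM correlated most with the mean of the 36 genes were Mid1ip1 (r = 0.9999), Bzw2 (0.9994), Mfsd2a (0.9993), Axin1 (0.9989) and Prdm6 (0.9989). These are descriptions over 3 lines with 2 libraries each, chosen from all genes tested, and carry no test.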
